A study of Mus musculus with 6 samples.

Results

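Activins, the follistatins that bind them and the receptors that read them were followed in the livers of mice with and without Gpr146. The 10 genes were Inhba, Inhbb, Inhbc, Inhbe, Inha, Fst, Fstl3, Acvr1, Acvr2a and Acvr2b, out of 22180 genes with a probe set of their own in the deposited table. Each of the 10 had exactly 1 probe set that names a single gene, so no choice between probe sets was needed. The family was chosen by measured values: Inhba was among the genes of smallest p in the KO and WT comparison, ranking 28 by unadjusted p, and the other 9 are its relatives, inhibitors and receptors. Its own difference is therefore given as a description, without a test.

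The data are 6 whole livers of male C57BL/6J littermates aged 24 weeks, kept on chow. The 3 wild-type (WT) mice carry Gpr146, an orphan-class G protein-coupled receptor, and the 3 knockout (KO) mice lack it in the whole body. All 6 had gone without food for 16 hours and then eaten for 6 hours, so no fasted liver is available for comparison. Each liver was hybridised to 1 whole-transcript Affymetrix array, which gives a log2 signal per probe set. Because the knockout is not limited to hepatocytes, the groups do not tell an effect in liver cells from one that reaches the liver from elsewhere, and the labels do not say which part of the gene was removed. Each sample is a separate mouse.

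Activins are dimers of inhibin beta chains, which belong to the TGF-beta superfamily. Inhba, Inhbb, Inhbc and Inhbe encode the beta A, B, C and E chains, while Inha encodes the alpha chain that turns a beta chain into an inhibin. An activin binds a type II receptor, Acvr2a or Acvr2b, which recruits a type I receptor and sends SMAD2 and SMAD3 to the nucleus. Follistatin (Fst) and follistatin-like 3 (Fstl3) hold activins away from the receptors. In liver, the beta C and beta E chains are made mainly by hepatocytes, and activin A, the dimer of beta A chains, is known for restraining hepatocyte growth.

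The 6 array medians ran from 2.67 to 2.73 (log2), and any pair of arrays correlated at 0.983 to 0.988. Gpr146 itself measured 5.96, 5.56 and 5.65 in the WT mice and 4.61, 4.28 and 3.87 in the KO mice, with every KO liver below every WT liver, at -1.47 ± 0.19 (SE; limma adjusted p = 0.0702). Whether its probes lie in the deleted part is not known here. Alb, the hepatocyte albumin gene, lay between 11.90 and 11.95 in all 6. WT mouse 3 stood apart from WT mice 1 and 2 in immediate early genes, and the values that touch the activin genes are given with those lists. The table holds no detection calls, and signals of different probe sets are not compared as levels, because each probe set has its own affinity.

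The start regions of Inhba and Inhbe are shown because these are the beta genes with the clearest step between genotypes and the widest spread among WT mice. RefSeq sequences of the GRCm38.p6 build, running from 250 bases before the annotated start to 50 bases after it, matched 9 of the 10 genes. Inhba lies at chr13:16011601-16011900 on the plus strand and Inhbe at chr10:127351799-127352098 on the minus strand. Capitals mark the letters TATAAA in Inhba, which begin at position -91 from the annotated start, and, in Inhbe, the reverse complement of the amino acid response element that ATF4 and C/EBP proteins are known to bind.
Inhba: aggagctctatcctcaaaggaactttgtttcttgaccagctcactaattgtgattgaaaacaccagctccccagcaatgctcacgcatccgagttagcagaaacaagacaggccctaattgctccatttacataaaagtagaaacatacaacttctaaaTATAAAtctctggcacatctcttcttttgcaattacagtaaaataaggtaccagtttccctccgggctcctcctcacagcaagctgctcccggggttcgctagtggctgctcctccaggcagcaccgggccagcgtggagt
Inhbe: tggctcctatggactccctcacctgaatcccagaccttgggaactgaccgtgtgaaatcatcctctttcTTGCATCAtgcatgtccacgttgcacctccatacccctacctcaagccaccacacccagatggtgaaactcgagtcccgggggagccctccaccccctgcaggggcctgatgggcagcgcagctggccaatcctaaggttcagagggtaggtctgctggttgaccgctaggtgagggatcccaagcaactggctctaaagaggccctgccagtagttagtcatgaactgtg

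Both strands were searched for 4 motifs, which were picked after the sequences had been read, and none of them overlapped another in these windows. TGACGTCA, the cAMP response element, was in 1.79% of 32851 promoters of this length and in none of the 9. TGACTCA, the AP-1 site, was in 5.20% of promoters and also in none of the 9. TATAAA was in 13.6% of promoters and was found in Inhba, at bases 160 to 165 of the window, and on the reverse strand in Fstl3, at bases 222 to 227. TGATGCAA, the amino acid response element, was in 0.895% of promoters and was found in Inhbe alone among the 9, at bases 70 to 77. In gene order the 4 beta genes share a neighbourhood that the selection did not use: Inhba lies next to Gli3, Inhbb next to Gli2, and Inhbe lies between Gli1 and Inhbc. The GLI genes encode Hedgehog transcription factors, and their mean signals of 2.14 to 2.41 were under the signal filter described next.

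Each difference is the KO mean less the WT mean, in log2 units. It was tested with limma among 11090 genes, those whose mean signal reached 2.99, the upper 50%. Of the 10 genes, 9 were tested and Fst, at 2.95, lay just under that limit, while Acvr2b, at 3.12, lay just over it. None of the 9 passed an adjusted p of 0.05 in limma, against 0.0361% of all genes tested. At an unadjusted p under 0.05 there was 1 of the 9, Inhba itself, against 9.13% of all genes. KO and WT values did not overlap in 1 of the 9, again Inhba with KO higher, against 9.63% of all genes with KO higher and 5.16% with KO lower. Since Inhba was chosen on this contrast, nothing is read from these counts.

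**Figure D1:**
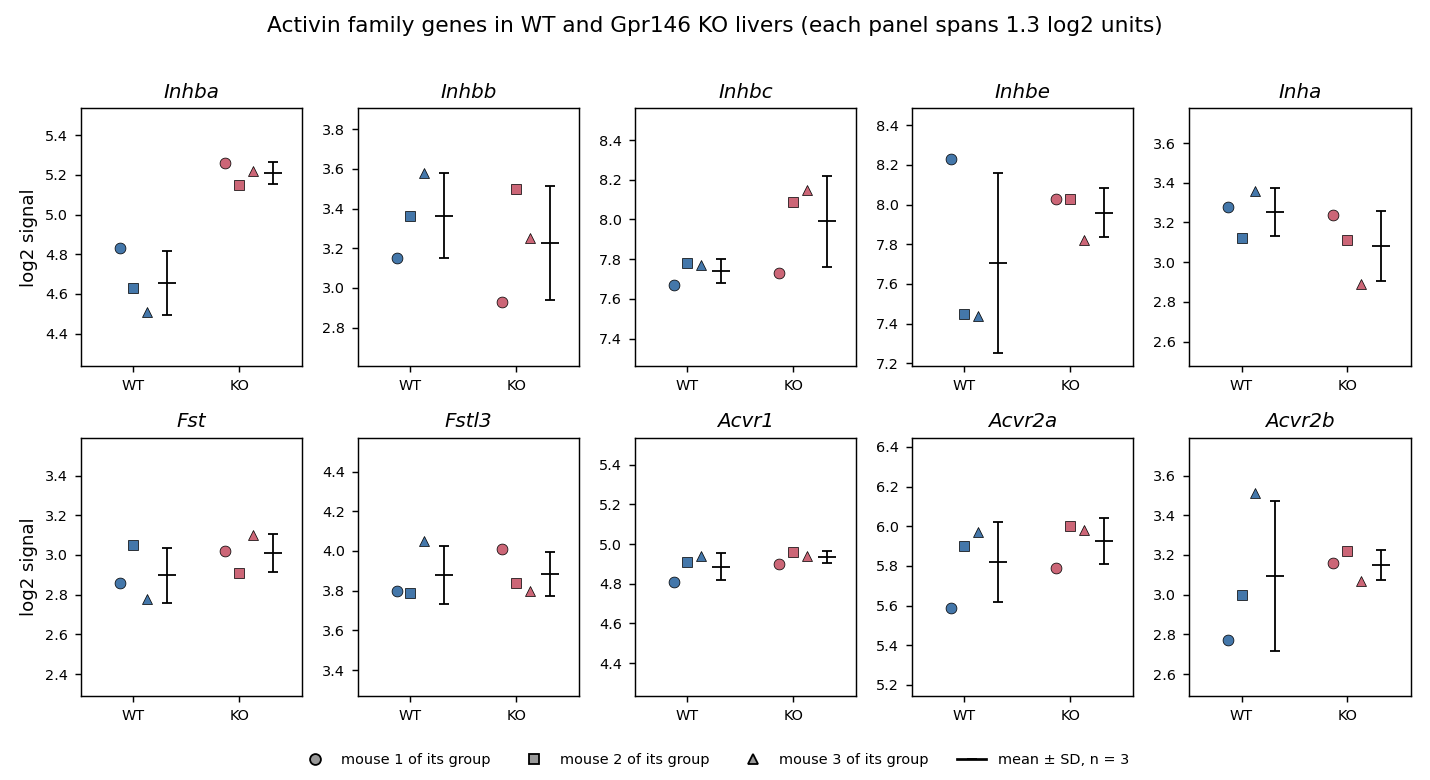
Log2 signal of the 10 genes in each liver, with WT mice in blue and KO mice in red; bars give the mean ± SD of 3 mice, and every panel spans the same 1.3 log2 units. Inhba is the gene whose groups are apart, with the lowest KO liver at 5.15 and the highest WT liver at 4.83.

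Inhba, the beta A chain of activin A, gave signals of 4.83, 4.63 and 4.51 for WT mice 1, 2 and 3, and of 5.26, 5.15 and 5.22 for KO mice 1, 2 and 3. Every KO liver was above every WT liver, by at least 0.32, and the KO livers lay within 0.11 of each other while the WT livers spread over 0.32. The means were 4.65 ± 0.16 in WT and 5.21 ± 0.054 in KO (SD, n = 3 each). They differed by 0.55 ± 0.11 (SE), which is 1.47-fold on the linear scale. A rise at least as large was seen in 90 of the 11090 genes, and a fall at least as large in 116. In a whole liver, more RNA per cell and more of the cells that express a gene cannot be told apart.

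Inhbb, the beta B chain, went the other way on average and had no clear pattern. It measured 3.15, 3.36 and 3.58 in WT and 2.93, 3.50 and 3.25 in KO. The groups overlapped, with KO mouse 1 the lowest of all 6 and WT mouse 3 the highest. The difference was -0.14, with a 95% interval of -0.51 to 0.23 (limma adjusted p = 0.840). Without KO mouse 1 the sign turned, to 0.0076, and the mean signal of 3.29 is close to the filter.

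Inhbc, the beta C chain of hepatocytes, measured 7.67, 7.78 and 7.77 in WT and 7.73, 8.09 and 8.15 in KO. KO mice 2 and 3 were above all WT mice, and KO mouse 1 lay among them. The difference of 0.25 had an interval of -0.034 to 0.53 and did not pass (limma adjusted p = 0.593). Without KO mouse 1 it was 0.38, without KO mouse 2 it was 0.20 and without KO mouse 3 it was 0.17.

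Inhbe, the beta E chain and the direct neighbour of Inhbc, had the widest spread of the family in WT. It measured 8.23, 7.45 and 7.44 in WT and 8.03, 8.03 and 7.82 in KO. WT mouse 1 was the highest of all 6, while WT mice 2 and 3 were below every KO mouse. The difference was 0.25 (interval -0.21 to 0.71, limma adjusted p = 0.737), and leaving out WT mouse 1 gave 0.51. Leaving out WT mouse 2, or WT mouse 3, gave 0.12.

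Inha, the inhibin alpha chain, measured 3.28, 3.12 and 3.36 in WT and 3.24, 3.11 and 2.89 in KO. The groups overlapped, and KO mouse 3 was the lowest. The difference was -0.17 (interval -0.44 to 0.099, limma adjusted p = 0.686), and -0.077 without that mouse.

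**Figure D2:**
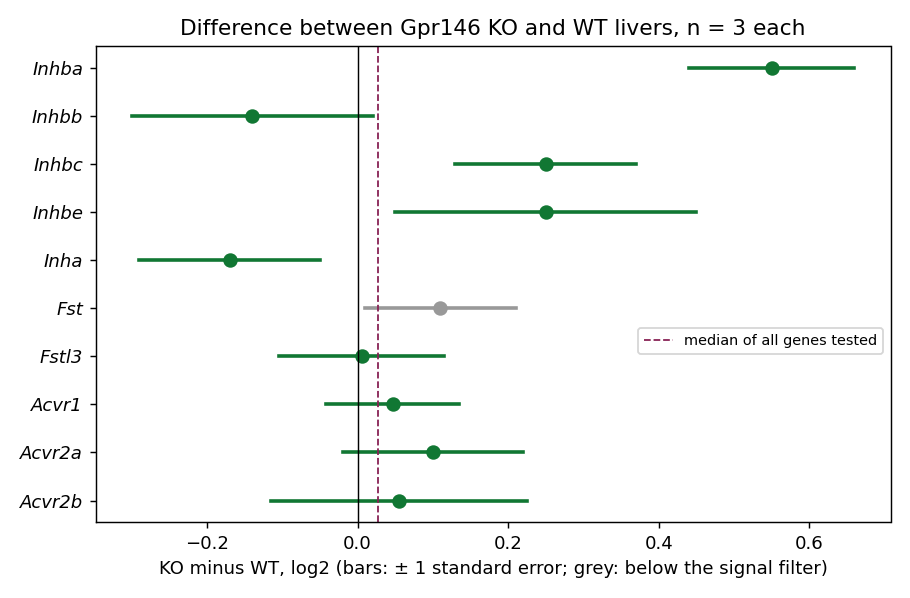
Difference between KO and WT on the log2 scale for each of the 10 genes; points are the limma estimates, bars ± 1 standard error, and the dashed line marks the median of all genes tested at 0.027. Inhba stands at 0.55 and the other 9 lie between -0.17 and 0.25; grey marks Fst, which was under the signal filter.

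Neither inhibitor of activins had separate groups. Fst measured 2.86, 3.05 and 2.78 in WT and 3.02, 2.91 and 3.10 in KO, with the groups overlapping and a difference of 0.11 in the fit without a filter (interval -0.12 to 0.34). Fstl3 measured 3.80, 3.79 and 4.05 in WT and 4.01, 3.84 and 3.80 in KO. Its groups had nearly the same mean, 3.88 and 3.89, and the interval of the difference ran from -0.25 to 0.26 (limma adjusted p = 0.994). Its sign turned with quantile normalization, median centring or array weights, and also when WT mouse 1 (-0.036), WT mouse 2 (-0.040) or KO mouse 1 (-0.058) was left out. For Fstl3 the interval covers folds from 0.842 to 1.20, so a rise as large as that of Inhba lies outside it.

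None of the 3 receptors had separate groups either. Acvr1, a type I receptor (also called ALK2) used mainly by bone morphogenetic proteins, measured 4.81, 4.91 and 4.94 in WT and 4.90, 4.96 and 4.94 in KO. The difference was 0.047 (interval -0.16 to 0.25, limma adjusted p = 0.914). Acvr2a, a type II receptor, measured 5.59, 5.90 and 5.97 in WT and 5.79, 6.00 and 5.98 in KO, with mouse 1 the lowest in each group. The difference was 0.10 (interval -0.18 to 0.39, limma adjusted p = 0.842). Acvr2b, the other type II receptor, measured 2.77, 3.00 and 3.51 in WT and 3.16, 3.22 and 3.07 in KO. The KO values fell inside the WT range, which at 0.73 was almost as wide as that of Inhbe, and the difference was 0.055 (interval -0.34 to 0.45, limma adjusted p = 0.946). Over the 8 tested genes other than Inhba, 6 had a higher mean in KO and 2 a lower one, with a median difference of 0.051 against 0.027 for all genes tested. The median over all 9 tested was 0.055, and dropping WT mouse 1 made it -0.011, dropping WT mouse 3 made it 0.12. Leaving out WT mouse 1 turned the signs of Acvr2a, to -0.011, and of Acvr2b, to -0.11.

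Inhba was then set against the other beta genes within each liver, which cancels anything that scales a whole array. The gap between Inhba and the mean of Inhbb, Inhbc and Inhbe came to -1.52, -1.57 and -1.75 for WT mice 1, 2 and 3, and to -0.97, -1.39 and -1.18 for KO mice 1, 2 and 3. The gap itself mixes probe affinities and says nothing of which gene is more abundant. In its change between mice a constant affinity cancels, but the treatment of weak signals still weighs on it. Every KO gap was above every WT gap, and the shift was 0.43 ± 0.14 (SE), so the difference of Inhba was larger than the mean difference of the other 3 by that amount. With a pseudocount of 8 the shift was 0.30.

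Against each gene alone the picture was less uniform. The shift of Inhba was 0.69 ± 0.29 (SE) relative to Inhbb, 0.30 ± 0.20 relative to Inhbc and 0.30 ± 0.20 relative to Inhbe. In each of these 3 comparisons the KO and WT gaps overlapped. Relative to Inhbe, the largest negative gap was that of WT mouse 1, at -3.40, where Inhbe was highest. No test was run on these shifts, because Inhba was chosen for its difference.

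**Figure D3:**
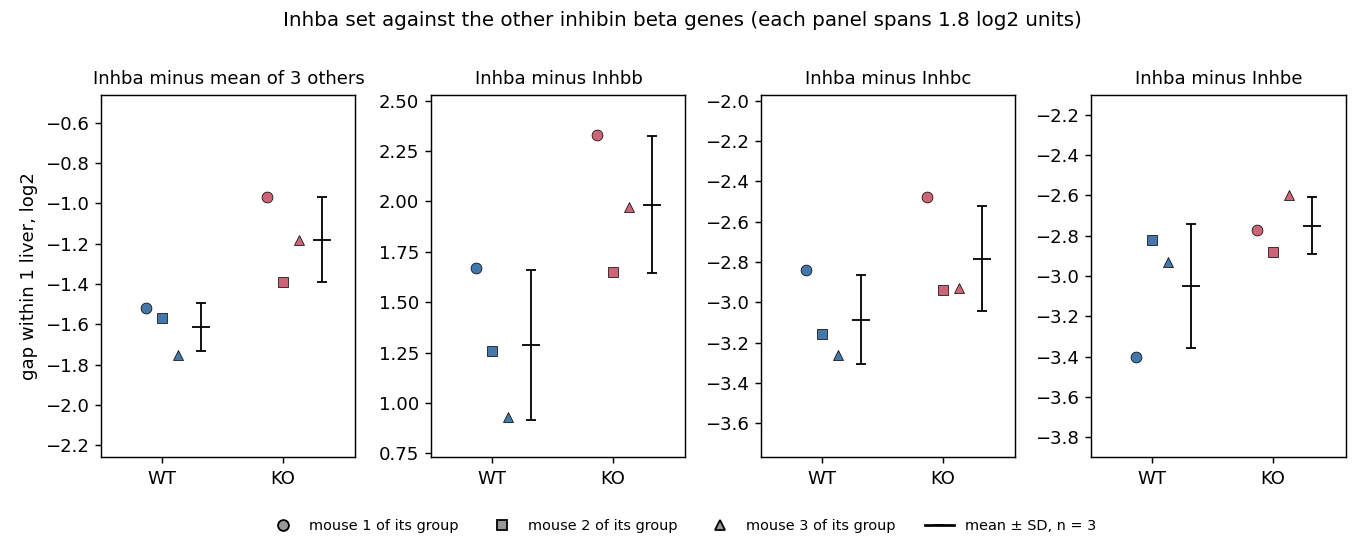
Inhba minus the mean of Inhbb, Inhbc and Inhbe, and minus each of them, within each liver on the log2 scale; bars give the mean ± SD of 3 mice and every panel spans 1.8 log2 units. Against the mean of the 3 others the lowest KO gap, -1.39, is above the highest WT gap, -1.52, while the groups overlap in the other panels.

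The genes whose values followed Inhba most closely over the 6 livers were Ccdc171, Adamts7, Cryzl1, Mprip and Cystm1, with Pearson r of 0.994, 0.986, 0.981, 0.977 and 0.976. Adamts7 encodes a secreted metalloproteinase and Mprip a protein that binds myosin phosphatase and RhoA. Ccdc171 measured 3.89, 3.66 and 3.58 in WT and 4.18, 4.16 and 4.22 in KO, the same order as Inhba in WT. Most opposed were Bzw2, Sub1, Slc27a1, Dazap2 and Papln, with r of -0.996, -0.988, -0.986, -0.976 and -0.975. Slc27a1, a fatty acid transporter, measured 4.86, 5.36 and 5.31 in WT and 4.14, 4.44 and 4.28 in KO. These 10 were picked as the extremes of all named genes tested, over only 6 mice that differ by genotype, so the coefficients describe these livers and carry no p. Within the family the r with Inhba over all 6 livers ran from -0.559 for Inhbb to 0.653 for Inhbe, and it carries the genotype step of Inhba. After the group means were taken out, r was 0.841 for Inhbe, -0.806 for Inhbb, -0.441 for Inhbc, -0.0359 for Inha and -0.456 for Fstl3. It was -0.985, -0.941 and -0.900 for Acvr1, Acvr2a and Acvr2b. Inhba spread over 0.32 in WT and only 0.11 in KO, so these r rest mostly on 3 WT mice and carry no p.

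The rest of the pathway was read through 9 gene lists, which were chosen with earlier results of these data known. No listed gene passed limma's adjusted p of 0.05 with all 6 mice, and the genes named are the 2 of smallest p in each list unless stated. Over all genes tested, 0.0361% passed and 9.13% had an unadjusted p under 0.05. Among other receptors and co-receptors, 8 of 14 were tested, 4 higher and 4 lower in KO, with a median difference of 0.0061 and 0 at an unadjusted p under 0.05. That median ran from -0.050 without WT mouse 1 to 0.042 without KO mouse 2. Tgfbr1, the type I TGF-beta receptor, was at 0.19 ± 0.13 (SE), and at 0.11 without WT mouse 2 or KO mouse 3 and 0.30 without KO mouse 2. Bambi, a decoy receptor, was at 0.11 ± 0.14, and at 0.27 without WT mouse 2 and 0.0031 without WT mouse 3. Acvr1b, the main type I receptor for activin, named after its values were seen, was at -0.011 ± 0.13, moving to 0.12 if WT mouse 1 was dropped and to -0.12 if WT mouse 3 was. Of 10 extracellular modulators and processing enzymes, 5 were tested, with a median of 0.038 and 0 at an unadjusted p under 0.05. That median ran from -0.052 without WT mouse 3 to 0.091 without KO mouse 1. Wfikkn1, an inhibitor of myostatin and GDF11, was at 0.12 ± 0.095, which dropping WT mouse 3 lowered to 0.071 and dropping KO mouse 3 to 0.076. Fstl1 was at -0.16 ± 0.14, and ran from -0.28 without WT mouse 1 or KO mouse 1 to -0.070 without WT mouse 3.

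Other ligands of the superfamily had a median difference of -0.13 over the 8 of 17 that were tested, with 1 higher and 7 lower, against 4688 lower among all 11090 genes. Without WT mouse 1 the median was -0.21, and without WT mouse 2 it was -0.11. Bmp6, the liver's signal of iron stores, was the 1 higher: it measured 4.11, 4.19 and 4.14 in WT and 4.27, 4.65 and 4.66 in KO. All KO values were above all WT values, with KO mouse 1 the nearest to WT, and the difference was 0.38 ± 0.12 (SE; limma adjusted p = 0.416). Tgfb3 measured 3.24, 3.14 and 3.19 in WT and 3.11, 3.03 and 2.74 in KO, all lower, at -0.23 ± 0.11 (limma adjusted p = 0.593) and at -0.12 without KO mouse 3. Neither passed.

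Among SMAD proteins and their regulators, 15 of 16 were tested, 8 higher and 7 lower, with a median of 0.080. An unadjusted p under 0.05 was seen in 1, lower in KO, against 9.13% of all genes tested. Dropping KO mouse 3 gave a median of 0.038, dropping WT mouse 3 gave 0.050 and dropping KO mouse 2 gave 0.12. The 1 lower gene was Pmepa1, a TGF-beta target that holds SMAD2 and SMAD3 back from activation. It measured 3.35, 3.36 and 3.24 in WT and 3.16, 2.91 and 2.95 in KO, every KO liver below every WT liver, at -0.31 ± 0.10 (SE; limma adjusted p = 0.416). Its mean signal of 3.16 is close to the filter. Smad5, which carries bone morphogenetic protein signals, was at 0.25 ± 0.11 with all KO values above WT (limma adjusted p = 0.560).

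The targets of the 2 SMAD branches were looked at apart. All 8 tested targets of SMAD2 and SMAD3, the branch that activins use, had a negative difference, with a median of -0.14. Among all genes tested, 4688 of 11090 had a negative difference. Of the 8 targets, 1 had an unadjusted p under 0.05, against 9.13% of all genes tested. The 8 were Pmepa1, Tgfbi, Ccn2, Col1a1, Cdkn2b, Cdkn1a, Skil and Smad7, and their differences ran from -0.41 to -0.012. Tgfbi, a matrix protein, measured 6.83, 7.20 and 7.20 in WT and 6.94, 6.87 and 6.70 in KO, at -0.24 ± 0.13 (SE; limma adjusted p = 0.611), or -0.37 without WT mouse 1. The list mean by mouse, each gene centred on its own mean, was -0.0035, 0.23 and 0.018 in WT and 0.15, -0.26 and -0.13 in KO, so KO mouse 1 lay among the WT mice. Leaving out KO mouse 1 moved the list median to -0.27, and leaving out WT mouse 1 to -0.23. The median shrank to -0.098 on dropping WT mouse 2. Dropping KO mouse 2 shrank the median to -0.12, with 0 genes at an unadjusted p under 0.05. The shared sign also leaned on that mouse. For Cdkn1a, KO mice 1 and 3, at 4.79 and 4.46, exceeded the WT mean of 4.40, and KO mouse 2 was at 3.84. Pmepa1, Skil and Smad7 stand in the SMAD list too. Smad7 is also counted among the SMAD1 and SMAD5 targets, of which Smad6 and Smad9 stand in the SMAD list as well.

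Targets of SMAD1 and SMAD5, the branch of bone morphogenetic proteins, had a median of 0.085 over 9 tested, with 6 higher and 3 lower. Of the 9, 1 had an unadjusted p under 0.05, against 9.13% of all genes tested. Without KO mouse 3 that median was -0.0010, without WT mouse 3 it was 0.050, without KO mouse 1 it was 0.16, without KO mouse 2 it was 0.13 and without WT mouse 1 it was 0.20. Atoh8, a transcription factor of that branch in hepatocytes, measured 5.37, 5.44 and 5.80 in WT and 6.01, 5.89 and 6.32 in KO. All KO livers were above all WT livers, and the difference was 0.54 ± 0.15 (SE; limma adjusted p = 0.358). Hamp2, a hepcidin paralog, measured 3.22, 5.18 and 3.68 in WT and 3.59, 2.90 and 3.07 in KO, with WT mouse 2 far above the others and a difference of -0.84 ± 0.44 (limma adjusted p = 0.606), or -0.26 without that mouse. Hamp, hepcidin itself and named after its values were seen, was at 0.18 ± 0.11 with overlapping groups. Hamp and Hamp2 are close copies of each other, and probes that read both cannot be told from these values.

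**Figure D4:**
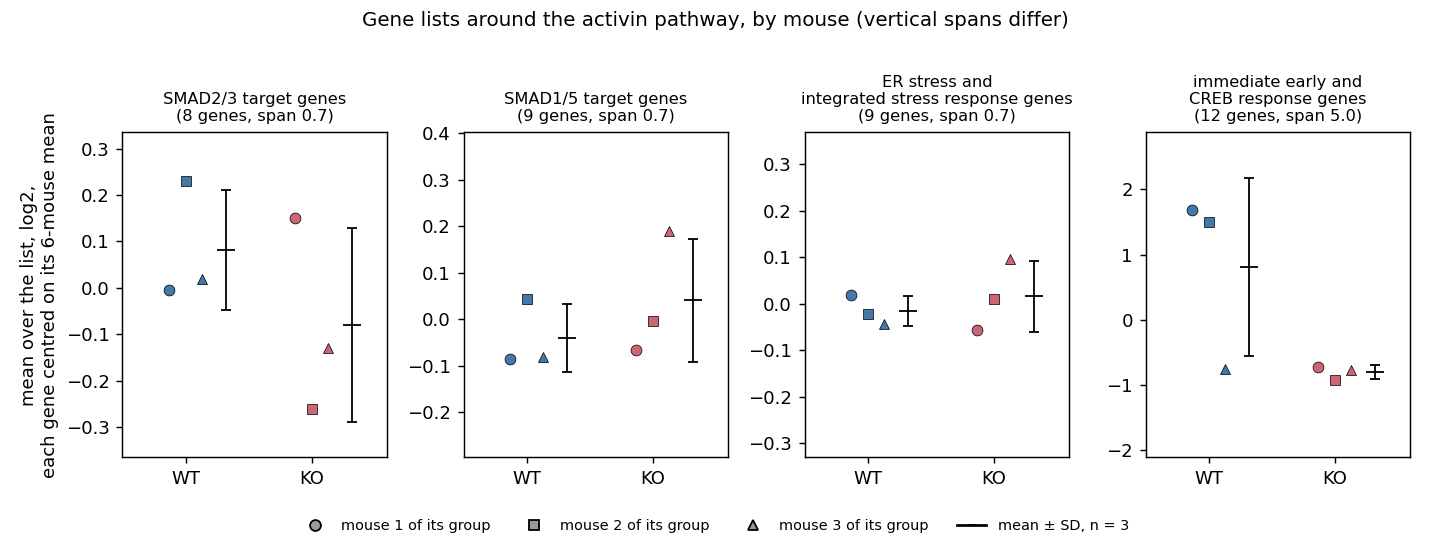
Mean of each gene list by mouse on the log2 scale, after centring each gene on its mean over the 6 livers; bars give the mean ± SD of 3 mice, and the vertical span is written above each panel because the last one is wider. WT mouse 3, at -0.76, lies with the KO mice in immediate early genes, and the groups overlap in all 4 panels.

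Genes tied to feeding and stress were listed because Inhbe is known to respond to both. Of 10 insulin, fasting and refeeding genes, 9 were tested, with a median of -0.043, 4 higher and 5 lower, and 0 at an unadjusted p under 0.05. Single mice turned that sign: dropping WT mouse 2 gave 0.11, KO mouse 2 gave 0.044 and WT mouse 3 gave 0.0025. Dropping KO mouse 3 gave -0.13. Igfbp1, a fasting gene that insulin represses, was at -1.41 ± 0.63 (SE), or -0.71 without WT mouse 2, and Srebf1, the lipogenic transcription factor, at 0.31 ± 0.18, or 0.16 when either WT mouse 3 or KO mouse 3 was dropped. Of 11 endoplasmic reticulum stress and integrated stress response genes, 9 were tested, with a median of -0.095. An unadjusted p under 0.05 was found in 2 higher and 1 lower, against 683 higher and 330 lower among all 11090 genes. Dropping KO mouse 1 gave a median of 0.0054, dropping WT mouse 2 gave -0.0035 and dropping KO mouse 2 gave -0.053. Dnajb9, an endoplasmic reticulum co-chaperone, was at -0.56 ± 0.15 and Sdf2l1, another, at 0.94 ± 0.25, each without overlap between groups (limma adjusted p = 0.347 for both). Without WT mouse 3 these 2 passed, Dnajb9 at -0.74 (limma adjusted p = 0.0385) and Sdf2l1 at 1.22 (limma adjusted p = 0.0475). The list mean was 0.018 in WT mouse 1, where Inhbe was highest, against -0.022 and -0.045 in WT mice 2 and 3. Atf4, named after its values were seen, was 6.95 there against 6.74 and 6.20, and 6.28 to 6.41 in KO, where Inhbe lay between 7.82 and 8.03. Hspa5, Ddit3, Xbp1 and Asns were also named after their values were seen. Of the tested genes in the list, only Atf4 and Hspa5, at 8.42, were highest in WT mouse 1. Ddit3 and Xbp1 were highest in WT mouse 2, at 5.72 and 8.08, and Asns in WT mouse 3, at 3.30. A link of these genes with Inhbe was not tested.

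Immediate early and CREB response genes had a list mean that was high in WT mice 1 and 2 and low in the other 4 livers, which not every gene followed. The list mean was 1.69 and 1.5 in WT mice 1 and 2, -0.76 in WT mouse 3, and -0.73, -0.93 and -0.77 in the KO mice. All 12 tested had a negative difference, with a median of -1.73, and 11 had an unadjusted p under 0.05, against 330 lower among all 11090 genes, while 0 passed after adjustment. With the trend and robust options 3 of the 12 had an unadjusted p under 0.05. Without WT mouse 3 the median was -2.58 and 9 passed, of 51 among all genes, and without WT mouse 1 the median was -1.15 with 3 at an unadjusted p under 0.05. Ier3 was at -0.39 ± 0.094 (SE) and Dusp6, a phosphatase that ERK induces, at -1.0 ± 0.27, each with all KO values below WT. Averaging all probe sets of Dusp6 gave -0.63. Ier3 did not follow the split, with 3.37, 3.50 and 3.51 in WT and 3.14, 3.07 and 2.99 in KO. Dusp1, named after its values were seen, was no higher in WT mouse 2, at 7.87, than in KO mice 1 and 3, at 8.04 and 7.91. Inhba did not follow this split: WT mouse 3 had the lowest Inhba signal, at 4.51, and the difference was 0.48 without that mouse and 0.64 without WT mouse 1.

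Markers of liver cell types were read beside Inhba because the tissue is a mixture. Of 52 marker genes with a probe set, 33 were tested, 0 passed in limma and 3 had an unadjusted p under 0.05, against 9.13% of all genes tested. All 7 hepatocyte markers were tested, and their mean level was 11.22 to 11.27 in WT and 11.19 to 11.28 in KO. All 6 Kupffer cell markers were tested, at 5.03 to 5.99 in WT and 5.23 to 5.84 in KO, and their highest WT liver was mouse 1. All 6 sinusoidal endothelial markers lay at 5.69 to 6.02 and 5.69 to 5.92. All 7 stellate cell markers lay at 5.17 to 5.55 and 5.42 to 5.52. Their median difference was 0.0029. Rgs5, also a pericyte marker, was at 0.33 ± 0.12 (SE) with all KO values above WT. Averaging all probe sets of Rgs5 gave 0.26 (limma adjusted p = 0.674). Hand2 was at 0.19, Colec11 at 0.14, Lrat at 0.0029, Des at -0.017, Reln at -0.16 and Dcn at -0.19, and these 6 had overlapping groups. The mean levels overlapped between the groups in all 4 lists.

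Bile duct markers were thinner, with 2 of 5 tested, Krt7 and Sox9, and a mean level of 4.29 to 4.65 in WT and 4.66 to 4.85 in KO, which did not overlap. Sox9 was at 0.41 ± 0.14 (SE; limma adjusted p = 0.437) with all KO values above WT, Krt7 at 0.15, and the defining markers Krt19 and Epcam were under the filter, at -0.054 and -0.087 with overlapping groups. Of 4 mesothelial markers, Wt1 was tested, at -0.25 ± 0.12 with all KO values below WT, or -0.14 without WT mouse 3, while Msln, Upk3b and Gpm6a were under the filter. Of the neutrophil and monocyte markers 0 of 5 were tested, of the T and NK cell markers 1 of 5, of the B cell markers 0 of 4 and of the fat cell markers 1 of 4. Of 6 pancreatic acinar markers 2 were tested, at 3.79 to 5.19 in WT and 3.42 to 3.87 in KO, with WT mouse 1 the highest. That mouse was also the highest in Inhbe, and a link between these values was not tested. The part of stellate, bile duct and other cells in the Inhba difference was not tested.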

How the data were processed

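Log2 signals of 41345 probe sets, with a column per mouse, were deposited by the authors, and per the labels' protocols the RNA was labelled as biotinylated cRNA for a whole-transcript Affymetrix array. The sources used here do not give the summary of probes or the normalization. That the scale is log2 follows from the range of the values. All columns matched a mouse by name. Genes were named from the platform annotation, updated by Entrez number to RefSeq symbols of GRCm38.p6: 23521 probe sets carried 1 gene, 1814 several and 16010 none, and the last 2 kinds were left out. The probe set of highest mean over the 6 arrays stood for each gene, which gave 22180 genes.

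KO and WT were compared in R 4.3.3 by a two-sided moderated fit without covariates (limma 3.58.1, eBayes defaults). Adjustment was by Benjamini-Hochberg over 11090 genes, the upper 50% by mean signal. The fit was tested on simulated data. For 3 mice against 3, an exact permutation test cannot go below 0.1, so no such p was used for single genes. The median standard error of a difference was 0.114, and the number of arrays limits precision. The members and gene lists were chosen with earlier results of these data known. Named genes are the 10 members, in each other list the 2 of smallest p, the 5 genes most and 5 least correlated with Inhba (placeholder symbols left out), Gpr146 and Alb; others are said to be named after their values were seen, except the cell type markers, the members of the SMAD2 and SMAD3 target list and chromosomal neighbours, which are given by list. Alternatives covered the signal filter, quantile normalization, median centring, averaging all probe sets of a gene, trend and robust options, array weights, a pseudocount of 8, the replicate number as a block and each mouse left out.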

Additional observations from a re-analysis of the deposited data

How the results depend on the processing

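No family gene that an alternative tested passed limma's adjusted p of 0.05, over 15 alternatives, and Fst was tested only without a filter. Every KO value of Inhba is above every WT value, so its direction could not turn when a mouse was left out, and its size lay between 0.44 with the pseudocount and 0.64 without WT mouse 1, and its shift against the other beta genes ran from 0.30 with the pseudocount to 0.54 without KO mouse 2. The upper 25% of signal held only Inhbc, Inhbe and Acvr2a of the family. Fstl3 turned to -0.046 with quantile normalization, -0.0090 with median centring and -0.0089 with array weights. With a mouse left out, Fstl3 ran from -0.058 to 0.092, Inhbb from -0.28 to 0.0076, Acvr2a from -0.011 to 0.18 and Acvr2b from -0.11 to 0.26. Over all genes, 4 passed in the main comparison, 0 in the upper 25% of signal (388 higher and 179 lower at an unadjusted p under 0.05), 1 with the pseudocount, 1 with the replicate block, and 1 to 51 with a mouse left out, the 51 without WT mouse 3. Quantile normalization changed the split at an unadjusted p under 0.05 from 683 higher and 330 lower to 494 and 584, and median centring to 508 and 355. The causes were not tested. Deviations from the group means correlated over genes at 0.0551, -0.187 and 0.147 for same-numbered mice, and at -0.268 to 0.241 for differently numbered ones. With 3 mice per group this cannot tell whether the numbers pair the mice. A block on the number leaves each difference unchanged by design, so Inhba stayed at 0.55 and its shift at 0.43. Weak signals near 2.99 limit what can be said of Fst, Acvr2b, Inha and Inhbb. The same holds for Pmepa1, Tgfb3 and Ier3, with mean signals of 3.16, 3.07 and 3.26. With the pseudocount their differences were -0.16, -0.12 and -0.21.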
